A study of Mus musculus with 18 samples.

Results

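Interleukin 6 (Il6), leukaemia inhibitory factor (Lif) and interleukin 11 (Il11) are cytokines of one family, and they were examined here together with their receptor genes Il6ra, Il6st, Osmr and Lifr, the transcription factor gene Stat3 and the feedback inhibitor gene Socs3. These 9 genes, of 29214 gene rows in the bulk table of the series, were chosen by their difference between intact and dissociated bladder in bulk RNA and by the cell classes that hold their transcripts. Those levels are therefore given as descriptions without a test, and tests are given for other contrasts and other genes. The lists of other genes were also chosen with earlier results known, so their counts are descriptions.

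The study is an atlas of the urinary bladder of C57BL/6 mice, with 18 samples, and its labels give no treatment and no altered allele for any group. Bulk RNA came from 3 libraries of intact bladder and 3 of dissociated bladder, all labelled as 12-month females with 3 animals to a sample. Single cells came from 5 whole-bladder libraries: 3 males of 22 months, 3 males of 3 months, 2 separate pools of 2 females and 2 males of 12 months, and 2 females and 2 males of 24 months. One library held nuclei of whole bladder (2 females and 2 males, 12 months), one held cells of the detrusor muscle layer alone (3 females, 14 months), and one held whole bladder enriched for detrusor (2 females and 2 males, 14 months). Spatial sections of frozen whole bladder came from males, 2 sections at 22 months and 2 at 14 months, with 4 animals named per sample. The labels name 3 or 4 animals to each sample and do not say which cells came from which animal. Nothing in them says that replicate libraries came from separate preparations, so p-values below measure only the spread between these libraries. The conditions of dissociation are not given in the sources used here.

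Interleukin 6 binds Il6ra, and the pair then recruits gp130, the shared signalling chain encoded by Il6st. Il11 uses its own receptor with gp130, while Lif signals through Lifr with gp130, and oncostatin M signals through Osmr or Lifr with gp130. The engaged receptors activate JAK kinases, which phosphorylate STAT3, and STAT3 in turn induces Socs3, whose product blocks the kinases and gp130. In fibroblasts and myeloid cells, Il6 is an immediate gene of inflammation and tissue injury, induced by interleukin 1, tumour necrosis factor and NF-kappaB.

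In the RefSeq annotation of GRCm38.p6, the ligand genes lie at chr5:30013114-30019975 (Il6), chr11:4257568-4272514 (Lif) and chr7:4772373-4782907 (Il11). The receptor genes lie at chr3:89869324-89913196 (Il6ra), chr13:112464070-112506860 (Il6st), chr15:6813568-6874968 (Osmr) and chr15:7090610-7197489 (Lifr). Stat3 lies at chr11:100886806-100939594 and Socs3 at chr11:117966079-117970336, and all 9 are protein-coding. The 250 bases before each RefSeq start were searched on both strands for 5 motifs, with all 9 genes matched to the table in 11 windows (Il11 and Lifr have 2 starts each). The windows with a match are shown so that the matched letters can be read in place, and no link between a match and a level was tested. Capitals mark the matched motif and all sequences read 5′ to 3′ on the strand of the gene, from RefSeq, GRCm38.p6.
Il6, chr5:30012864-30013113, plus strand: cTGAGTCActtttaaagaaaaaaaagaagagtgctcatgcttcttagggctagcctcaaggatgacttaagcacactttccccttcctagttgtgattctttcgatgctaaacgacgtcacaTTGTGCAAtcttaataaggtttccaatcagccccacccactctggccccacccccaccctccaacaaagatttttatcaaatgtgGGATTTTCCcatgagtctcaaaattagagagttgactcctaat
Lif, chr11:4257318-4257567, plus strand: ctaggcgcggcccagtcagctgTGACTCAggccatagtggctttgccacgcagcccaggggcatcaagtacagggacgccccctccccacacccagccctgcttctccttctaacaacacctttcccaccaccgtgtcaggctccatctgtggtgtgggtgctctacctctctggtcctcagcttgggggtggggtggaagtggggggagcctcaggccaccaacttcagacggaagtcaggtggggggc
Il11, second start, chr7:4778221-4778250, minus strand: aggagggagggTGAGTCAggatgtgtcagg
Socs3, chr11:117969501-117969530, minus strand: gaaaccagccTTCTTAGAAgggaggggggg

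The Il6 window held an AP-1-type motif (TGANTCA) 249 to 243 bases before the start, a C/EBP-type motif (TTGCNNAA, here on the opposite strand) 128 to 121 bases before it and a kappaB-type motif (GGNNTTTCC) 43 to 35 bases before it. The AP-1-type motif was also found 228 to 222 bases before the Lif start and 98 to 92 bases before the second Il11 start. Of the Il11 and Socs3 windows only 30 bases are shown, because they lie within the annotated span of their own gene. A STAT-type motif (TTCNNNGAA) stood 154 to 146 bases before the Socs3 start. None of the matches overlapped another. Among 32851 mouse windows of the same length, 6.75% held the AP-1-type motif, 9.56% the C/EBP-type motif, 4.93% the kappaB-type motif and 7.02% the STAT-type motif. Another motif, CRE-type (TGACGTCA), was held by 1.55% of windows and by none of the 11. The windows of Il6ra, Il6st, Osmr, Lifr and Stat3, and of the first Il11 start, held none of the 5. A match is a stretch of letters and not a measured binding site, and the lack of a match says only that these letters are not in that window.

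Sequencing depth and preparation set the precision of what follows. The bulk libraries held 23083752 to 68760791 counted reads. After filters, 948 to 8420 cells or nuclei per droplet library and 937 to 1317 spots per section were kept. Median counts of unique molecular identifiers (UMIs) per cell were 1805 and 2455 in the 2 male whole-bladder libraries, 10387 to 15803 in the 3 of mixed sex, 1109 in nuclei and 8173 to 8216 in the 2 detrusor preparations. Sex mix, depth, barcode length and gene list therefore change together among the whole-bladder libraries and cannot be told apart. Pairs of libraries shared 0 to 64 cell barcodes over 16 pairs compared. Cell classes were named from marker lists and are called "like" for that reason. The library labelled detrusor held no urothelial-like class of 50 cells, and its 161 smooth muscle-like cells were fewer than its 3139 fibroblast-like cells. In the 22-month male library 1306 cells stayed unnamed because the leading genes of their clusters, such as Tagln and Acta2, belonged to another list than their best-scoring one. In the detrusor-enriched library 1201 shallow barcodes stayed unnamed for the same reason.

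Among the ligands in bulk RNA, Il6 was almost undetected in intact bladder and abundant after dissociation. The 3 intact libraries held 1, 2 and 2 Il6 reads, or 0.0423, 0.0283 and 0.0738 CPM (reads scaled to library size, here normalised by the trimmed mean of M-values). The dissociated libraries held 5094, 4761 and 4017 reads, or 188.1, 178.1 and 173.7 CPM. Every dissociated library was far above every intact one, and the ratio of summed reads, relative to all counted reads, was 4121 (exact 95% interval 1766 to 12700, for counting error only). The fitted log2 difference was 11.99, a value that depends on how so few intact reads are handled. It was 11.47 to 12.33 over the alternative settings. No SE is given for it, because the intact side rests on 5 reads.

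Lif, the ligand of Lifr, had 4.65, 3.77 and 4.61 CPM in intact bladder and 15.95, 15.2 and 15.5 CPM in dissociated bladder. The log2 difference was 1.87 ± 0.13 (SE), or 3.65-fold. Il11 had 0.296, 0.482 and 0.627 CPM in intact bladder and 2.51, 3.70 and 4.02 CPM in dissociated bladder. Its log2 difference was 2.86 ± 0.33 (SE), or 7.26-fold.

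The receptor genes differed less. Il6ra, which encodes the ligand-binding chain for interleukin 6, had 31.7, 30.8 and 36.7 CPM in intact and 89.3, 82.8 and 89.5 CPM in dissociated bladder, a log2 difference of 1.42 ± 0.09 (SE). Osmr, a chain of the receptors for oncostatin M and interleukin 31, had 85.6, 84.0 and 85.4 CPM in intact and 207.8, 202.5 and 292.6 CPM in dissociated libraries, a log2 difference of 1.49 ± 0.15 (SE). Both were between 2.68- and 2.80-fold higher after dissociation, with the third dissociated library highest for Osmr. Lifr had 50.6, 53.9 and 48.7 CPM in intact and 87.4, 85.3 and 87.1 CPM in dissociated bladder, a log2 difference of 0.78 ± 0.07 (SE). Il6st, the gp130 gene, was the exception: 666.0, 691.2 and 652.6 CPM in intact and 679.3, 602.5 and 668.6 CPM in dissociated libraries. Its groups overlapped, and its log2 difference was -0.02 ± 0.09 (SE), between -0.13 and 0.05 over the alternative settings.

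Stat3, the transcription factor downstream of gp130, had 213.0, 204.3 and 215.4 CPM in intact and 503.0, 530.8 and 667.4 CPM in dissociated bladder, a log2 difference of 1.45 ± 0.12 (SE). Socs3, the feedback inhibitor, had 12.5, 8.67 and 15.3 CPM in intact and 1085, 811.2 and 820.0 CPM in dissociated bladder. The lowest dissociated value was far above the highest intact one, and the log2 difference of 6.26 ± 0.26 (SE) corresponds to 76.4-fold. Over all genes tested in this contrast 27.9% were called higher and 31.3% lower after dissociation by edgeR's quasi-likelihood test at an adjusted p of 0.05, and the median log2 difference was -0.03. The median over the 9 genes was 1.49, but they were chosen on this contrast, so nothing is read from that figure. With scaling by library size alone the median over all genes moved to -0.14, and no gene of the 9 other than Il6st changed direction under any scaling.

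**Figure D1:**
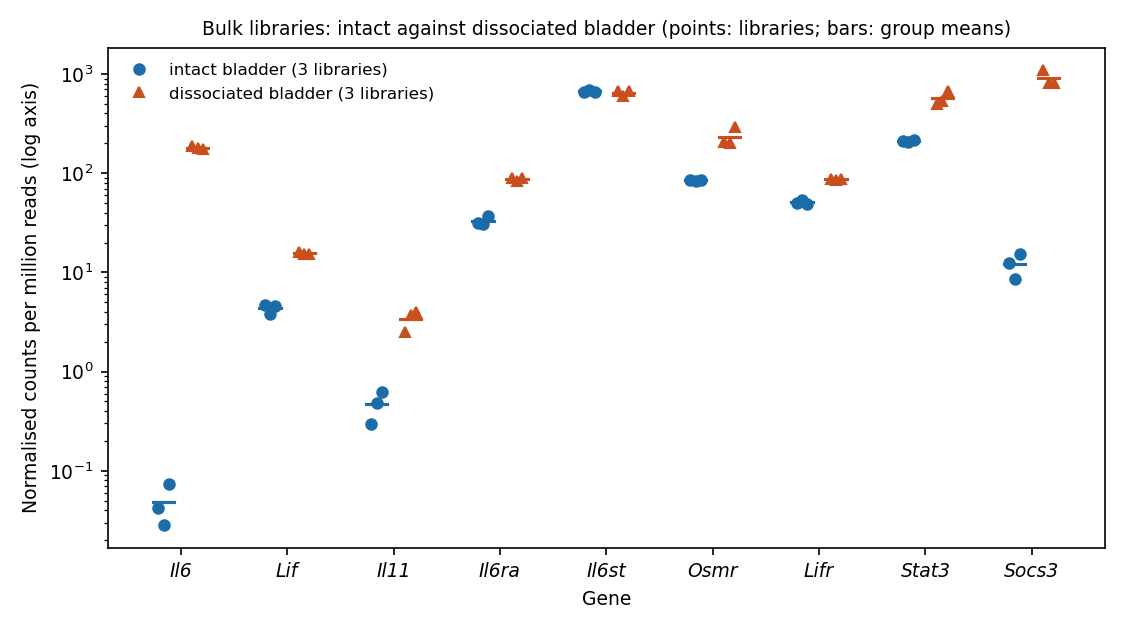
Normalised bulk CPM (log axis) of the 9 genes in 3 intact and 3 dissociated libraries, each point a library and each bar a group mean. Il6 goes from below 0.1 to above 170 CPM and Socs3 from at most 15.3 to at least 811.2 CPM, while the Il6st points of both groups overlap.

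The RNA of cell type markers moved with these values. Of 14 urothelial markers 6 rose and 4 fell (median 0.47), with summed levels of 7585 to 8735 CPM in intact and 6595 to 9812 CPM in dissociated bladder. The summed level of 10 smooth muscle markers was 41510 to 43290 CPM in intact and 2240 to 3381 CPM in dissociated bladder, and all 10 fell (median log2 difference -3.84). All 12 fibroblast markers rose (median 1.33, from 17550 to 21270 CPM up to 34270 to 49490 CPM), as did 9 of 10 macrophage or monocyte markers (median 0.55) and 7 of 8 blood endothelial markers (median 0.92). Of 8 pericyte markers 2 rose and 5 fell (median -0.84), from 1225 to 1287 CPM down to 651.9 to 734.4 CPM. All 6 adipocyte markers fell (median -4.79, from 274.5 to 471.0 CPM down to 51.3 to 82.4 CPM). The summed skeletal muscle markers went from 536.7 to 697.0 CPM down to 25.3 to 41.2 CPM, with 1 of 5 tested higher and 2 lower. All 5 erythroid markers rose (median 2.09), as did all 6 lymphatic endothelial markers tested (median 0.99) and 6 of 8 dendritic markers (median 0.76). Of 7 Schwann markers 5 fell and 1 rose (median -0.55). In the neutrophil list 3 of 5 markers tested rose (median 1.59), but its summed level did not. That level was 50.67 to 57.16 CPM in intact and 51.65 to 54.15 CPM in dissociated bladder. In bulk RNA, fewer cells of a type and less RNA per cell cannot be told apart, and the part of these shifts in the differences of the 9 genes was not tested. A list of 26 immediate early and heat shock genes, taken as a response to dissociation, rose in 26 of 26 (median 4.18), with Fosb at 9.47 ± 0.74 (SE), Atf3 at 7.61 ± 0.46, Fos at 7.02 ± 0.41 and Egr2 at 6.83 ± 0.23, with edgeR adjusted p between 1.2e-06 and 4.3e-05. This list, too, was chosen with earlier results of these data known, so its count is not independent evidence of a direction.

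Other genes of the pathway were tested in the same fit, with adjusted p-values over all genes. Among 8 other ligand genes of the family 5 could be tested, and 3 rose: Osm, oncostatin M, by 3.33 ± 0.30 (SE, edgeR adjusted p = 7.5e-05), Clcf1 by 3.19 ± 0.31 (adjusted p = 0.00012) and Ebi3 by 0.65 ± 0.20 (adjusted p = 0.026). Of 4 other receptor genes Cntfr, the receptor for ciliary neurotrophic factor, fell by 2.23 ± 0.12 (adjusted p = 6.3e-06), while Il27ra rose by 1.21 ± 0.41 (adjusted p = 0.034) and Il11ra1 by 0.36 ± 0.10 (adjusted p = 0.015). The calls of Ebi3, Il27ra and Il11ra1 were lost with scaling by library size alone (adjusted p = 0.053, 0.055 and 0.056). Of 8 kinases and relays 3 rose and 3 fell, 37.5% each way, near the 27.9% and 31.3% over all genes. Stat5a, a related transcription factor, rose by 1.38 ± 0.10, and Jak1, the kinase bound to gp130, rose by 0.71 ± 0.08. Ptpn11, the phosphatase SHP2, fell by 0.55 ± 0.07 on the log2 scale. Both proteases that can shed Il6ra rose, Adam17 by 0.49 ± 0.11 (adjusted p = 0.0070) and Adam10 by 0.37 ± 0.12 (adjusted p = 0.031), but Adam10 not with scaling by library size alone (adjusted p = 0.092). Il27ra was also lost with no filter on low counts (adjusted p = 0.0653). Leaving out 1 library also ended the calls of Adam10 (any but dissociated library 1, adjusted p 0.0556 to 0.115), Il27ra (any intact library or dissociated library 2, 0.0648 to 0.114), Ebi3 (intact library 1 or 3 or dissociated library 2, 0.0569 to 0.0878) and Il11ra1 (intact library 2, 0.0603).

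Of 6 other feedback inhibitors 4 rose and 1 fell. Over all genes tested 27.9% were called higher and 31.3% lower, and the lists were chosen with earlier results known. The counts here are therefore descriptions, and the genes named are the called ones with the largest change. Socs1 rose by 3.10 ± 0.20, Cish by 1.97 ± 0.14, Socs2 by 1.41 ± 0.23 and the phosphatase gene Ptpn2 by 1.36 ± 0.12, with edgeR adjusted p between 1.5e-05 and 0.0015. Of 20 genes known to respond to STAT3, 19 were tested, and 15 rose and 2 fell (median 1.88). Among those that rose were the chemokine gene Ccl2 at 5.72 ± 0.29, the AP-1 subunit gene Junb at 4.77 ± 0.14, Bcl3 at 3.51 ± 0.09 and Cebpb, which encodes a C/EBP factor, at 3.25 ± 0.20. Many of these genes answer to other stimuli as well, and Junb is also in the dissociation list. All 7 inducers and regulators of Il6 rose, with Il1b (interleukin 1 beta) at 6.92 ± 0.29, Tnf (tumour necrosis factor) at 4.24 ± 0.25 and the NF-kappaB cofactor gene Nfkbiz at 3.53 ± 0.16, with adjusted p between 2.9e-06 and 1.0e-05 for these 3.

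In single cells, fibroblast-like cells held most Il6 UMIs of every whole-bladder library. Their share was 66.8% of 292 UMIs in the 22-month male library (exact 95% binomial interval 61.1 to 72.2%) and 54.4% of 206 in the 3-month male library (47.3 to 61.3%). It was 63.9% of 761 (60.3 to 67.3%) and 54.9% of 614 (50.9 to 58.9%) in the 2 libraries of 12 months and 63.8% of 611 (59.9 to 67.7%) at 24 months. The share lay above 50% in all 5, although these cells gave only 5.62 to 49.3% of all UMIs. These intervals, and the Poisson intervals below, cover counting error only.

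The Il6 level of fibroblast-like cells varied widely between libraries. It was 19.4 CPM, here of UMIs summed over the class, in the 22-month and 18.6 in the 3-month male library, and 204.3, 374.9 and 98.2 in the first and second 12-month and the 24-month library. Both male libraries lay below the 3 of mixed sex, a split that coincides with depth, barcode length and gene list. The summed dissociation list showed no such split within fibroblast-like cells, at 32410 and 37290 CPM in the male libraries and 38800, 37920 and 36770 CPM in those of mixed sex. In urothelial-like cells it was higher in the male libraries, at 17880 and 14940 CPM, than in those of mixed sex, at 9597, 9494 and 9809 CPM. Its part in the Il6 levels was not tested. The detrusor-only library had 7.64 and the detrusor-enriched library 33.5 CPM of Il6 in fibroblast-like cells. In nuclei no Il6 UMI was seen in 397 fibroblast-like nuclei, and 1 UMI was seen in all 3375 nuclei, in a macrophage or monocyte-like nucleus.

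Within the class, a few cells carried most Il6. In the 22-month male library 86 of 4613 fibroblast-like cells had an Il6 UMI, and 16 cells held 50% of the class's 195 UMIs. In the first 12-month library 107 of 415 cells had one (25.8%, with a median of 5546 UMIs per cell) and 18 cells held 50% of 486 UMIs. Beside it, 136 of 2100 urothelial-like cells of that library had an Il6 UMI (6.48%, with a median of 14042 UMIs per cell). In both male libraries 1 fibroblast-like cluster stood apart. A cluster led by Sult1e1, Cxcl13, Penk and Ccl11 in the 22-month library had 153.6 CPM of Il6 (95% Poisson interval 128.2 to 182.7), with 7.11% of the class's cells and 65.6% of its Il6 UMIs. A cluster led by Lum, Clec3b, Sult1e1 and Penk in the 3-month library had 144.9 CPM (114.9 to 180.3), with 10.2% of the cells and 71.4% of the Il6 UMIs. The next cluster was at 31.0 CPM (22.2 to 42.1) and at 28.8 CPM (17.1 to 45.6). In the 24-month and first 12-month libraries the highest Il6 stood in a cluster led by Col1a1, Col1a2, Car3 and Cxcl14, at 164.7 and 245.9 CPM. Another 24-month cluster led by the same 4 genes was at 62.4 CPM, the lowest of that library. In the detrusor-only and detrusor-enriched libraries the highest clusters, at 18.0 and 70.5 CPM, were led by Dcn, Clec3b, Inmt and Fbln1 and by Fbln1, Dcn, Pi16 and Tcf21. The clusters were made without the 9 genes, but in the same cells, so these are descriptions.

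The class with the highest Il6 level differed between libraries. It was the fibroblast-like class in both 12-month libraries and the 24-month library, where few other classes reached 50 cells, and another class in the remaining ones. Pericyte-like cells, the mural cells of small vessels, were at 141.6 CPM (127.4 to 157.0) in the detrusor-only library and 485.8 CPM (431.0 to 545.6) in the detrusor-enriched library. The class does not hold the same clusters in both. In the detrusor-only library a cluster of 166 cells led by Rgs5 had 353.9 CPM (316.8 to 394.1) and one of 200 cells led by Gm13889, Sncg, Rasl11a and Pcp4l1, with smooth muscle as its second list, had 18.5 CPM (12.5 to 26.5). In the detrusor-enriched library the class was 1 cluster led by Rgs5, and a cluster of 104 cells that also had Rasl11a, Sncg and Pcp4l1 among its leading genes was named smooth muscle-like, at 57.7 CPM of Il6 (44.3 to 73.8). No whole-bladder library had a named pericyte-like class of 50 cells. In the 22-month male library a cluster of 98 cells led by Rasl11a, Rgs5, Tagln and Sncg scored best on the pericyte list. It stayed unnamed, so the order of classes in that library leaves it out. Pericyte-like cells gave 56.9% and 16.7% of the Il6 UMIs of the detrusor-only and detrusor-enriched libraries, from 6.80% and 1.96% of the cells. Fibroblast-like cells held 208 of 636 Il6 UMIs in the first and 840 of 1706 in the second. In the detrusor-enriched library 4 of 101 pericyte-like cells held 50% of the class's 285 Il6 UMIs, so the value rests on few cells. Blood endothelial-like cells had 10.4 and 67.3 CPM in the male libraries and 10.5 and 137.1 CPM in the detrusor libraries. Macrophage or monocyte-like cells had 38.1 and 48.7 CPM in the male libraries, but 0 UMIs among 322 cells of the detrusor-only library, where 3 UMIs would be 1.12 CPM. Dendritic-like cells ranged from 11.2 to 104.8 CPM over 6 libraries. In the second 12-month library 67 cells that scored as macrophage or monocyte-like had 112.3 CPM, but their cluster was led by Cd74 and class II genes such as H2-Aa, as were dendritic-like clusters of the first 12-month and 24-month libraries. Its values are not counted under either class in the text. T or NK-like cells had 0 Il6 UMIs in 3 of 4 libraries, and B-like cells had 0 and 3.04 CPM.

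Urothelial-like cells, the lining epithelium, were below fibroblast-like cells in Il6 level in every library of cells that held both. They were at 0.419, 1.99, 6.68, 14.8 and 6.32 CPM in the whole-bladder libraries (22-month, 3-month, first and second 12-month, 24-month). Being numerous, they still held 26.7 to 35.0% of the Il6 UMIs in the 3 libraries of mixed sex. In whole bladder their level was 2.16 to 10.7% of that in fibroblast-like cells of the same library, while the 12 fibroblast markers stood at a median of 0.345 to 4.29% there. In the detrusor-enriched library Il6 stood at 15.1% (5.07 against 33.5 CPM) and the markers at a median of 0.596%. In the 22-month library the Il6 percentage was below that of the markers (2.16 against 4.29%) and in the other 4 whole-bladder libraries above it (for example 3.95 against 0.345% in the second 12-month library). The part of free RNA in urothelial Il6 was not tested.

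**Figure D2:**
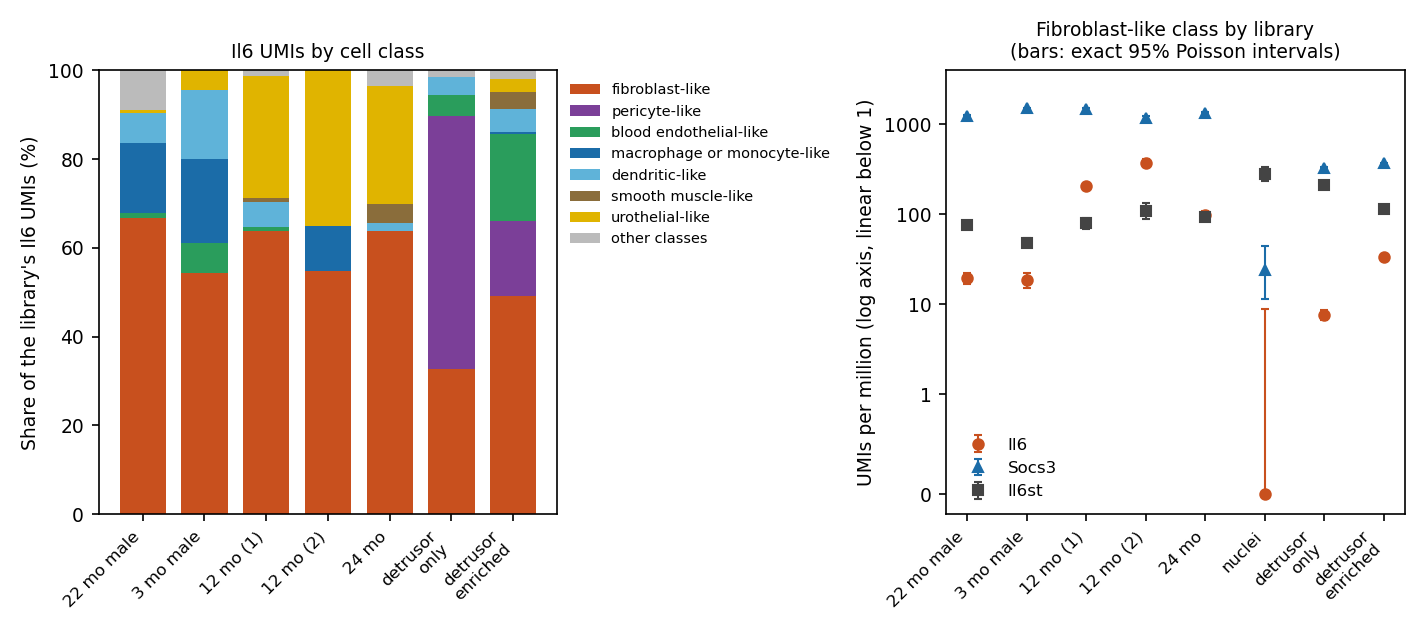
Left, share of each library's Il6 UMIs (%) by cell class in the 5 whole-bladder and 2 detrusor preparations, with fibroblast-like cells at 54.4 to 66.8% in whole bladder and pericyte-like cells at 56.9% in the detrusor-only library. Right, UMI level in CPM (log axis, linear below 1) of Il6, Socs3 and Il6st in fibroblast-like cells or nuclei by library, with exact 95% Poisson intervals; in nuclei Il6 is 0 and Socs3 is 24.0.

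Lif and Il11 were scarce everywhere. Lif had 8 to 52 UMIs in a whole-bladder library, and its level in fibroblast-like cells was between 1.26 and 7.79 CPM in the 8 droplet libraries. In the detrusor-enriched library fibroblast-like cells held 92.4% of 131 Lif UMIs, and in the detrusor-only library 76.9% of 78. T or NK-like cells had the highest Lif level in 3 libraries, at 15.5, 7.32 and 11.01 CPM, from 5, 3 and 3 UMIs, and the Poisson intervals overlapped those of the next class. Blood endothelial-like, pericyte-like and smooth muscle-like cells held no Lif UMI in the libraries with 50 such cells. Il11 was highest in fibroblast-like cells in 8 of 8 libraries, from 1.66 CPM in the 3-month male library to 7.21 CPM in nuclei. These values rest on 3 to 172 UMIs in a library, and the order of classes was not tested. In the detrusor-only library fibroblast-like cells held 91.5% of 188 Il11 UMIs.

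Among the receptor genes, Il6ra was highest in macrophage or monocyte-like cells in 5 of 8 libraries and in dendritic-like cells in 2. Macrophage or monocyte-like cells had 62.2 and 69.9 CPM in the male whole-bladder libraries, 130.7 and 164.5 CPM in the detrusor libraries and 167.9 CPM in nuclei. Dendritic-like cells had 46.9 to 61.4 CPM in whole bladder and 122.3 and 160.2 CPM in the detrusor libraries. In every library the interval of the highest class overlapped that of the next, and their order was not tested. Fibroblast-like cells had 35.0 to 82.3 CPM in whole-bladder cells, the last being the highest class value of the second 12-month library, and 105.7 CPM in nuclei, and urothelial-like cells had 11.5 to 22.8 CPM in whole-bladder cells. Blood endothelial-like cells had 0 Il6ra UMIs in both male libraries, where 3 UMIs would be 10.4 and 14.4 CPM, and 9.86 and 15.1 CPM in the detrusor libraries.

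Il6st, the chain common to all these cytokines, was highest in blood endothelial-like cells wherever 50 of them were present among cells. They had 506.0 and 211.4 CPM in the male libraries and 626.7 and 763.5 CPM in the detrusor libraries. Lymphatic endothelial-like cells (384.7 and 429.6 CPM), Schwann-like cells (287.6 and 313.2 CPM), mesothelial-like cells (229.3 to 281.0 CPM) and pericyte-like cells (158.4 and 409.1 CPM) were all below them in the same libraries. Fibroblast-like cells had 76.5, 48.6, 79.5, 109.0 and 94.2 CPM in whole bladder and urothelial-like cells 62.1, 59.0, 32.7, 30.4 and 41.2 CPM, in the order of libraries given for Il6. The urothelial value was the higher in the 3-month library and the lower in the other 4. T or NK-like cells were lowest in each of the 4 libraries with 50 of them, at 6.20, 8.86, 39.0 and 3.67 CPM, and B-like cells had 21.3 and 31.3 CPM.

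Among cells, Osmr and Lifr were also high in those of vessel walls, where these were captured. Blood endothelial-like cells had 62.4, 91.3, 125.1 and 173.5 CPM of Osmr and 90.1, 197.0, 210.1 and 301.1 CPM of Lifr in the 22-month, 3-month, detrusor-only and detrusor-enriched libraries. Pericyte-like cells had 136.9 and 163.6 CPM of Osmr and 88.4 and 107.4 CPM of Lifr. Among blood cells, the lymphoid classes were low in both genes, with at most 3.67 CPM of each in T or NK-like cells, and with 0 and 7.60 CPM of Osmr and 0 CPM of Lifr in B-like cells. Dendritic-like cells had 0 to 9.15 CPM of Osmr and 10.3 to 67.4 CPM of Lifr. Macrophage or monocyte-like cells had at most 2.49 CPM of Osmr among cells, but 17.4 and 56.2 CPM of Lifr in the male libraries and 165.4 and 116.8 CPM in the detrusor libraries. Urothelial-like cells had 18.5 to 35.4 CPM of Osmr and 2.17 to 3.36 CPM of Lifr in whole-bladder cells. Among nuclei the urothelial-like class had the highest Osmr level, at 105.3 CPM (92.6 to 119.3). Blood endothelial-like nuclei were next at 91.05 CPM (39.3 to 179.4), and the intervals overlapped. For Lifr, macrophage or monocyte-like nuclei had 198.4 CPM and blood endothelial-like nuclei 193.5 CPM, also with overlapping intervals. Fibroblast-like cells had 19.0, 21.6, 109.7, 84.6 and 65.2 CPM of Osmr, with the male libraries again below those of mixed sex, and 17.7 to 34.5 CPM of Lifr. These levels compare classes within a gene, and no gene is ranked against another.

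Stat3 had UMIs in every named class of 50 cells except the 50 B-like cells of the 3-month library. Blood endothelial-like cells were highest in 5 of 8 libraries, with 221.0 to 340.8 CPM among cells and 204.9 CPM in nuclei. The remaining libraries had no such class of 50 cells. In the 22-month, 3-month and nuclei libraries its interval overlapped that of the next class, and the order was not tested. Fibroblast-like cells had 69.8, 73.9, 145.5, 231.4 and 160.6 CPM and urothelial-like cells 51.4, 37.4, 60.3, 62.9 and 62.9 CPM in whole bladder. Fibroblast-like cells were the higher of the pair in each library.

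Socs3 was higher in fibroblast-like and blood endothelial-like cells than in urothelial-like cells, and other classes varied. Macrophage or monocyte-like cells had 240.0 to 1366 CPM and dendritic-like cells 129.2 to 1208 CPM over the libraries of cells. Lymphatic endothelial-like cells had 180.3 and 224.8 CPM and mesothelial-like cells 57.0 to 383.3 CPM. Fibroblast-like cells had 1245, 1506, 1472, 1166 and 1354 CPM in the whole-bladder libraries and 328.5 and 368.3 CPM in the detrusor-only and detrusor-enriched libraries. The whole-bladder values lay within 1166 to 1506 CPM across ages and depths, above both detrusor values. Urothelial-like cells had 164.8, 128.2, 58.1, 47.0 and 45.8 CPM, which is 3.38 to 13.2% of the fibroblast-like level. The male libraries were the highest for urothelial Socs3, as they were for the dissociation list in these cells, and the part of that list in the Socs3 level was not tested. Blood endothelial-like cells had 2090 and 2633 CPM in the male libraries and 991.2 and 1079 CPM in the detrusor libraries, and Schwann-like cells reached 722.1 and 2681 CPM in the latter. In nuclei all classes were low, from 0 UMIs in 103 blood endothelial-like nuclei to 55.1 CPM (20.2 to 119.8) in mesothelial-like nuclei.

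**Figure D3:**
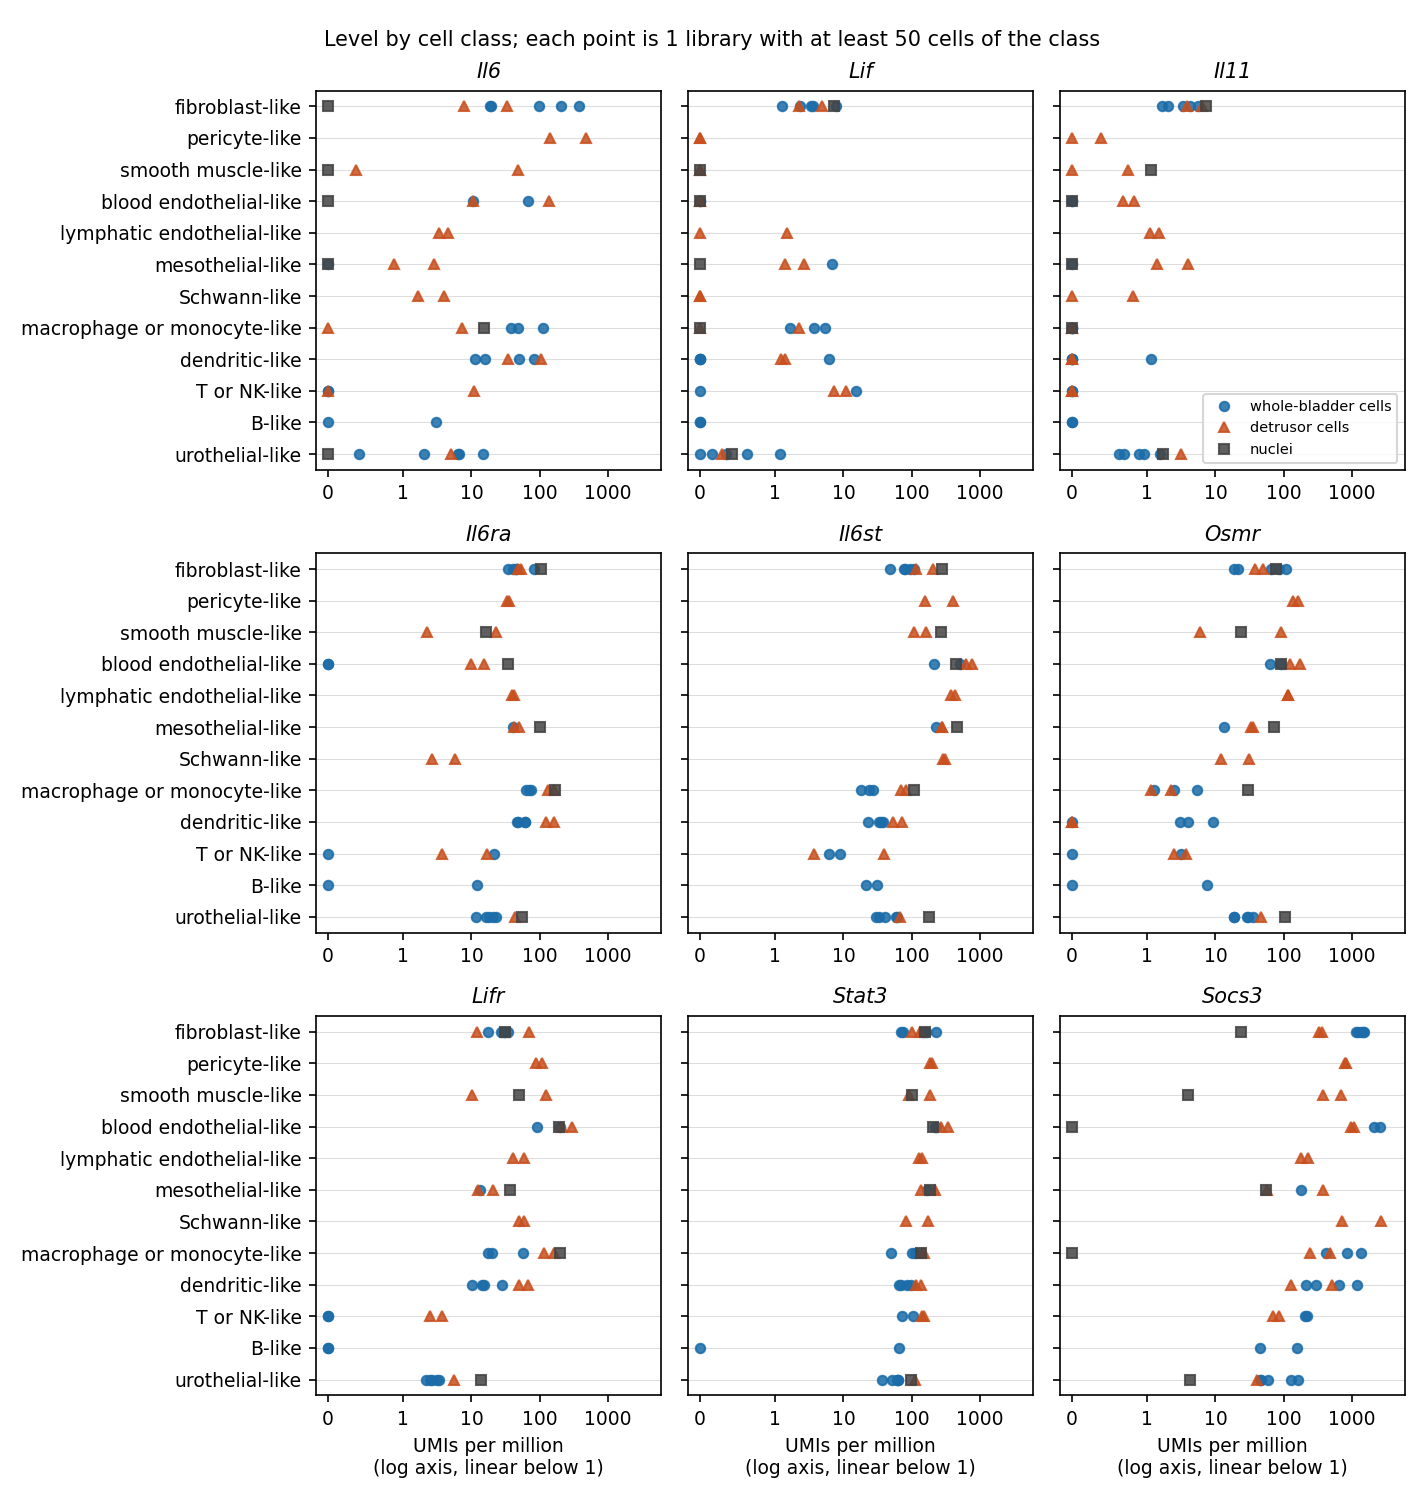
UMI level in CPM (log axis, linear below 1) of each of the 9 genes by cell class, each point being 1 library with at least 50 cells of the class, in whole-bladder cells, in the detrusor-only and detrusor-enriched cells, and in nuclei. Il6ra lies high in macrophage or monocyte-like and dendritic-like cells, Il6st in blood endothelial-like cells, and the macrophage or monocyte-like points include the cluster of the second 12-month library led by Cd74 (112.3 for Il6). Socs3 is lower in nuclei than in cells of each class shown for both.

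Genes with the most similar distribution were found by Pearson correlation of log2(CPM + 1) over 51 class-by-library profiles among 9640 genes. The profiles share libraries, so the coefficients are descriptions. Il6 was most like Cxcl1 (0.67), a neutrophil chemokine gene, Cdkn1a (0.66) and Egr2 (0.65). Socs3 was most like Fos (0.89), Jund (0.86) and Ier2 (0.86), all of the dissociation list. Osmr was most like Nr2f2 (0.88), Ptprg (0.88) and Amotl1 (0.87). Il6st was most like Pxdn (0.87), Nfib (0.86) and Wwc2 (0.86), and Lifr most like Trim47 (0.85), Stard8 (0.83) and Cttnbp2nl (0.83). Stat3 followed Dync1li1 (0.83), Smc1a (0.83) and Jmjd1c (0.82), Il6ra followed Dapk1 (0.82), Eps8 (0.76) and Pid1 (0.71), and Il11 followed Dclk1 (0.77), C7 (0.73) and Efna5 (0.71). Lif, with UMIs in only 28 of the profiles, reached 0.53 with Tnfsf11, 0.50 with AW112010 and 0.50 with Arsb.

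Nuclei were set beside the cells of whole bladders in fibroblast-like and in urothelial-like profiles. The class levels of the 9 genes in these same libraries entered their choice, so their differences are given with no p-value. There was 1 library of nuclei, and every SE below comes from the spread of the 5 libraries of cells. The nuclei were of 12 months and both sexes, while these cells span 3 to 24 months and include both male libraries. The CPM values are before normalisation and the log2 differences after it, so the 2 are on unlike scales. In fibroblast-like nuclei Socs3 was at 24.0 CPM, against 1166 to 1506 CPM in cells. Its normalised log2 difference was -6.72 ± 0.60 (SE), and -6.90 to -5.81 over the alternative settings. In urothelial-like nuclei Socs3 was at 4.25 CPM, against 45.8 to 164.8 CPM in cells. The normalised difference there was -5.42 ± 0.77, and -5.62 to -4.37 over the alternative settings. The nuclei lay below every library of cells in both classes.

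Il6 was at 0 UMIs in 397 fibroblast-like and 1278 urothelial-like nuclei. Taking 3 UMIs as the limit (7.21 CPM), the level in fibroblast-like cells was at least 2.70-, 2.58-, 28.4-, 52.0- and 13.6-fold higher in the 5 whole-bladder libraries. For urothelial-like cells the limit was 1.27 CPM, and the level was at least 1.56-, 5.24-, 11.6- and 4.96-fold higher in 4 libraries and under the limit in the 22-month library.

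Il6st was at 281.0 CPM in fibroblast-like nuclei, above the 48.6 to 109.0 CPM of cells, with a normalised log2 difference of 0.84 ± 0.49 (SE). In urothelial-like nuclei Il6st was at 179.7 CPM against 30.4 to 62.1 CPM, a difference of 0.87 ± 0.23. Lifr was at 14.0 CPM in urothelial-like nuclei against 2.17 to 3.36 CPM, a difference of 1.18 ± 0.35. In CPM, before normalisation, Il6st, Il6ra and Il11 in fibroblast-like nuclei and Il6st, Il6ra, Il11, Osmr, Lifr and Stat3 in urothelial-like nuclei lay above every library of cells. The Il11 values rest on 3 and 4 UMIs. Socs3 lay below every library of cells in both classes and Il6 did in fibroblast-like nuclei, while in urothelial-like nuclei the limit for Il6 lies above the 22-month level of cells. Among the remaining values in fibroblast-like nuclei, log2 differences were 0.16 for Il6ra, 0.28 for Il11, 0.22 for Lif, -0.77 for Lifr, -0.62 for Osmr and -0.75 for Stat3. In urothelial-like nuclei they were 0.36 for Il6ra, -0.33 for Il11, -1.40 for Lif, 0.71 for Osmr and -0.45 for Stat3. The signs of Il11 and Stat3 there are opposite to their order in CPM. Scaling by library size alone turned the sign of Osmr, Lifr and Stat3 in fibroblast-like and of Il11 and Stat3 in urothelial-like nuclei. Set against the 12-month libraries of cells alone, fibroblast-like nuclei had log2 differences of -1.16 for Osmr, -1.06 for Stat3 and -0.04 for Il6ra. In urothelial-like nuclei that of Stat3 was then -0.77.

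The rest of the pathway was tested in the same fits. These calls compare 1 library of nuclei, assumed to be as variable as cells, and say nothing of the spread between preparations of nuclei. Over all genes tested, 8.59% were called higher and 15.8% lower in fibroblast-like nuclei, and 16% higher and 19.2% lower in urothelial-like nuclei. With scaling by library size alone 84.6% of the fibroblast calls were higher instead of 35.2%, and 89.6% of the urothelial calls instead of 45.4%. The dissociation list fell in 16 of 26 genes in fibroblast-like nuclei (median -4.38) and in 22 of 26 in urothelial-like nuclei (median -3.47), with no gene higher. Of 6 feedback inhibitors 3 fell in fibroblast-like nuclei: Socs1 by 4.14 ± 0.88 (SE, edgeR adjusted p = 0.015), Ptpn2 by 2.48 ± 0.58 (adjusted p = 0.021) and Socs2 by 1.78 ± 0.43 (adjusted p = 0.023). In urothelial-like nuclei Ptpn6 and Ptpn2 fell and Pias3, an inhibitor of STAT3, rose by 1.21 ± 0.31. Ptpn2 and Socs2 were not called lower in fibroblast-like nuclei, nor Ptpn6 and Ptpn2 in urothelial-like nuclei, with scaling by library size alone. In urothelial-like nuclei the calls of Ptpn6, Pias3 and Ptpn2 were also lost without the first 12-month library (adjusted p = 0.0801, 0.0574 and 0.0576), those of Ptpn6 and Pias3 without the 24-month library (adjusted p = 0.0738 and 0.0555) and that of Ptpn6 without the 3-month library (adjusted p = 0.0622). Ptpn6 was also lost with a higher minimum of UMIs per cell (adjusted p = 0.0507) and with doublets kept (adjusted p = 0.0567). Socs2 in fibroblast-like nuclei was lost, by a narrow margin, without the first 12-month library (adjusted p = 0.05003). Of 19 STAT3 response genes tested 1 rose (5.26%) and 3 fell (15.8%) in fibroblast-like nuclei, near the shares over all genes, with Bcl6 at 3.89 ± 1.13 and Junb at -5.92 ± 0.59, Myc at -4.62 ± 1.10 and Timp1 at -3.62 ± 0.69. Bcl6 was not called without the 22-month, first 12-month or 24-month library (adjusted p = 0.0589, 0.0689 and 0.0821), nor with a higher minimum of UMIs per cell (adjusted p = 0.0592). In urothelial-like nuclei none rose and 6 fell, Ccl2 by 8.94 ± 1.59 the most. Il1b fell by 8.87 ± 1.86 in fibroblast-like nuclei and fell by 10.07 ± 1.68 in urothelial-like nuclei. The kinase gene Tyk2 rose in both, by 2.21 ± 0.47 and 2.05 ± 0.25 (adjusted p = 0.015 and 0.0021). Il11ra1, the Il11 receptor, fell by 2.75 ± 0.46 in fibroblast-like nuclei (adjusted p = 0.0091), and Adam17 rose by 1.21 ± 0.28 in urothelial-like nuclei (adjusted p = 0.016).

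Age was compared within the whole-bladder cells, with the 22- and 24-month libraries against those of 3, 12 and 12 months and the sex mix as a covariate. In fibroblast-like cells 0% of genes were called higher and 0% lower, and likewise 0% and 0% in urothelial-like cells. The edgeR test gave unadjusted p under 0.05 for 233 of 11718 and 344 of 12691 genes, and DESeq2 called 9 and 4. Without the 24-month library 243 genes were called in fibroblast-like cells (120 higher, 123 lower) and 29 in urothelial-like cells, and without the first 12-month library 44 in urothelial-like cells. Il6 had a log2 difference of -0.89 ± 0.55 (SE) in fibroblast-like and -0.90 ± 0.47 in urothelial-like cells, with an edgeR adjusted p of 0.9999 in both. Without the 24-month library the Il6 difference in fibroblast-like cells was 0.16, of the opposite sign, and in urothelial-like cells it was -2.11. Its values overlapped between ages, with 19.4 and 98.2 CPM in the older and 18.6, 204.3 and 374.9 CPM in the younger fibroblast-like cells. Socs3 differed by -0.11 ± 0.21 and 0.08 ± 0.19. The other receptor and signalling genes lay between -0.42 ± 0.22 (Osmr in fibroblast-like cells) and 0.35 ± 0.18 (Il6ra in urothelial-like cells), none called.

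Sections of frozen bladder were not dissociated before capture. Il6 was at the edge of detection there, with 2 and 0 UMIs in the 22-month sections (0.0648 and 0 CPM) and 18 and 7 UMIs in the 14-month sections (0.853 and 0.314 CPM). The filter on low counts left it out of the test. Lif had 49, 32, 39 and 20 UMIs and Il11 23, 11, 17 and 17 UMIs in these 4 sections. Socs3 was at 7.97 and 8.45 CPM at 22 months and 23.6 and 17.4 CPM at 14 months. Its log2 difference of -1.26 ± 0.19 (SE) had an edgeR adjusted p of 0.097, and it was called with scaling by library size alone (adjusted p = 0.041), with no filter (adjusted p = 0.011) and by DESeq2 (adjusted p = 8.9e-07). With 2 sections per age, 0% of 14995 genes were called higher and 0% lower by edgeR, 2488 had an unadjusted p under 0.05 and DESeq2 called 944. Without the first 22-month section edgeR called 300 genes, and without the second 14-month section 18. The dissociation list moved with Socs3, at 2275 and 1963 CPM at 22 months and 6751 and 4205 CPM at 14 months, and its part in the Socs3 difference was not tested. Il6st was at 166.0 and 131.8 CPM at 22 months and 198.3 and 193.6 CPM at 14 months (-0.34 ± 0.11, adjusted p = 0.22, called by DESeq2 at 0.036), and Il6ra at 11.2 and 8.68 against 14.2 and 13.8 CPM (-0.43 ± 0.14, adjusted p = 0.24). The remaining 5 genes tested lay between -0.25 ± 0.40 (Il11) and 0.21 ± 0.42 (Lif).

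Regions of spots were described by the marker list raised in them, at least 1.2-fold, a threshold set after the values were seen. In each section the regions with the fibroblast list raised had no gene of that list among their 4 leading genes, so the list's name does not give their cell type. They were led by immunoglobulin genes such as Igkc and Ighm in the first 22-month section (113 spots). In the second they were led by Iglc1, Igkc, Ighm and Jchain (55 spots) and by Iglc3, Ighg1, Serpina3n and Spon1 (106 spots). At 14 months they were led by Ccl21a, Cytl1 and haemoglobin genes (35 spots) and by Cytl1, Cldn5, Lrg1 and Vwf (63 spots). Regions with the smooth muscle list raised were mixed as well. Some were led by Slpi, Ccl21a, Msln and C3, in the first 22-month section (98 spots) and the first and second 14-month sections (65 and 79 spots). Another in the second 14-month section was led by Igkc, Ighm, Des and P2rx1 (144 spots). A spot can hold cells of several types. Il6st was lowest in urothelial regions, at 70.1, 63.5, 83.6 and 79.9 CPM (22-month sections, then 14-month sections), and at 285.8, 264.3, 292.8 and 312.4 CPM in smooth muscle regions. Regions with the fibroblast list raised had 139.4 and 137.1 CPM of Il6st at 22 months and 437.2 and 282.8 CPM at 14 months. Osmr followed another order, at 50.8, 51.5, 60.0 and 51.0 CPM in urothelial regions against 25.02, 34.8, 30.1 and 30.5 CPM in smooth muscle regions. Where the fibroblast list was raised Osmr was at 46.0, 42.7, 63.0 and 43.9 CPM, above the urothelial value in the first 14-month section only. Of these 3 kinds of region, Lifr was highest in those with the fibroblast list raised, at 49.8, 40.1, 113.4 and 76.0 CPM, and lowest in urothelial regions, at 17.6, 14.1, 13.5 and 15.2 CPM. Socs3 was lowest in urothelial regions in each section, at 3.25, 4.92, 7.43 and 8.21 CPM, against 11.8, 15.3, 70.2 and 34.8 CPM where the fibroblast list was raised.

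**Figure D4:**
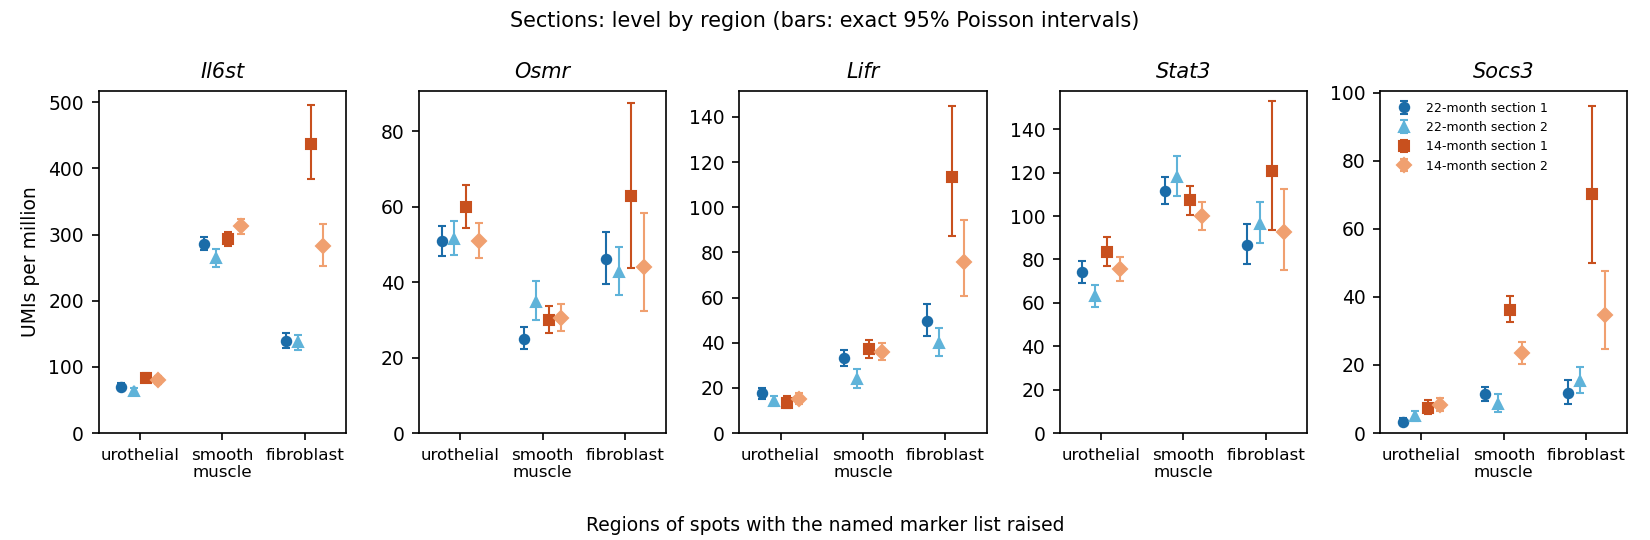
UMI level in CPM of Il6st, Osmr, Lifr, Stat3 and Socs3 in regions of spots with the urothelial, smooth muscle or fibroblast list raised, in 4 sections, with exact 95% Poisson intervals. Il6st lies between 264.3 and 312.4 in smooth muscle and between 63.5 and 83.6 in urothelial regions, while Osmr is higher in urothelial than in smooth muscle regions of each section.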

How the data were processed

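Droplet, spatial and bulk tables were used as deposited. The deposited values are counts: UMIs for each barcode and gene in droplet and spatial files, and reads for each gene symbol in bulk. They are whole numbers with unequal totals. Per the submitters' processing notes, bcl2fastq, Cell Ranger, Space Ranger, Subread, featureCounts and the build mm10 were used, with versions not given in the sources used here. The 9 genes, the pathway lists and the marker lists were chosen with earlier results of these data known. Barcodes under 500 UMIs or over 20% mitochondrial reads were dropped, 8 to 660 barcodes per droplet library were removed as likely doublets by comparison with simulated ones, and each library was clustered (scanpy 1.11.5, 30 components, resolution 1) without the 9 genes among the variable genes. Clusters were named from 19 marker lists. UMIs were summed per library and class of at least 50 cells, and mitochondrially encoded genes were left out. Tests across genes used edgeR 4.0.16 (quasi-likelihood, TMM scaling, filter on low counts, two-sided, Benjamini-Hochberg over all genes tested), with DESeq2 1.42.0 and other settings as alternatives, and the scripts were tested on simulated data. Each SE is the absolute log2 difference divided by the square root of the edgeR F statistic, so it is approximate. The named genes were the 9 and, from each list, up to 4 called genes with the largest log2 change. Bulk columns carry the words tissue and dissociated cells with a replicate number, and the latter were matched to the titles that name cells. For the 9 genes no p-value is given in bulk or between nuclei and cells, since their choice used those levels.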

Additional observations from a re-analysis of the deposited data

Results flagged for a closer look

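Of 18 groups of 5 libraries examined for a single distant value, 1 was flagged, which is about what chance gives at 1 in 20. Il6ra in fibroblast-like cells of the second 12-month library was at 82.3 CPM, and the other 4 whole-bladder libraries lay between 35.0 and 45.8 CPM. The gap to the nearest library was 0.771 of the whole range. This library had the fewest fibroblast-like cells, 140, and the 95% Poisson interval of the value was 64.6 to 103.4 CPM.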

How the results depend on the processing

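The direction of Socs3 in nuclei, and that of 8 of the 9 genes in bulk, held under each alternative run. Whether bulk replicate numbers pair the libraries was not settled, as there are only 3 numbers. Correlations of deviations were 0.203, 0.344 and -0.07 for libraries of the same number and -0.437 to 0.277 for those of different numbers. With a replicate block 10118 bulk genes were called against 9798 without it. By age, DESeq2 called 9 genes in fibroblast-like and 4 in urothelial-like cells and no filter gave 9 and 70, against 0. Between sections, scaling by library size alone gave 38 calls, DESeq2 944 and no filter 287, against 0. The cause was not tested. Leaving out 1 library gave 0 to 243 calls by age in fibroblast-like cells (243 without the 24-month library), 1 to 44 in urothelial-like cells (44 without the first 12-month library) and 0 to 300 between sections (300 without the first 22-month section).

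Il6 shares moved to 59.7% (fibroblast-like, 22-month, doublets kept), and with a higher minimum of UMIs per cell to 52.2% (fibroblast-like, detrusor-enriched) and 51.2% (pericyte-like, detrusor-only). Signs turned with scaling by library size alone for Osmr (0.38), Lifr (0.16) and Stat3 (0.23) in fibroblast-like nuclei, for Il11 (0.87), Stat3 (0.81) and Ptpn2 (0.11) in urothelial-like nuclei and for Stat3 in sections (-0.036). They also turned for Il6ra in fibroblast-like nuclei against 12-month cells alone (-0.039), and, with no sex term, by age for Il11 in fibroblast-like (-0.10) and Stat3 in urothelial-like cells (-0.014). The turned values by age and in sections were not called.

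With 1 library left out, bulk Il6st ranged from -0.05 to 0.05. Age differences in fibroblast-like cells ranged from -1.62 to 0.16 (Il6), -0.16 to 0.90 (Lif), -1.10 to 1.45 (Il11), -0.049 to 0.75 (Il6st) and -0.30 to 0.062 (Stat3), and in urothelial-like cells from -0.17 to 0.077 (Osmr), -0.24 to 0.22 (Lifr) and -0.22 to 0.47 (Socs3). Section differences ranged from -0.23 to 0.85 (Lif), -0.36 to 0.12 (Lifr) and -0.043 to 0.098 (Stat3). Low counts limit Lif and Il11 in the droplet libraries, where many class values rest on under 10 UMIs. Calls of 18 pathway and dissociation genes were lost in at least 1 alternative, 33 times with 1 library left out and 18 times otherwise. The turned value of Ptpn2 in urothelial-like nuclei is a further lost call, not in these counts.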
